A study of Arabidopsis thaliana with 12 samples.

Results

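The genes described here are 10 nuclear genes of chlorophyll synthesis in Arabidopsis thaliana, chosen by their locus numbers. They are HEMA1 (AT1G58290), GUN4 (AT3G59400), CHLH (AT5G13630), CHLI1 (AT4G18480), CHLM (AT4G25080), CRD1 (AT3G56940), PORA (AT5G54190), PORB (AT4G27440), PORC (AT1G03630) and CAO (AT1G44446). All 10 are listed in each of the 4 deposited tables, out of 22373 genes listed in all 4 tables and 24912 listed in any. The plants were wild-type Col seedlings aged 10 days on MS medium, and leaf and root were sequenced separately. Controls grew without particles. Treated seedlings grew with 50 ug/ml of polystyrene nanoplastics, either PS-SO3H, whose name gives a sulfonic acid group, or PS-NH2, whose name gives an amino group. There were 6 groups by tissue and treatment with 2 libraries in each, and nothing in the labels says that they came from separate plants or cultures.

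Chlorophyll is made in the plastid from glutamate along the tetrapyrrole pathway, which it shares with heme, siroheme and the phytochrome chromophore. The chlorophyll branch starts where magnesium chelatase inserts magnesium into protoporphyrin. Later enzymes close the fifth ring, reduce protochlorophyllide in the light and convert part of the chlorophyll precursor from the a to the b form. Many of these genes are under light and clock control in leaves, and free intermediates form reactive oxygen in light.

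A level is the authors' fitted value for a group, in reads after scaling by size factor, and not divided by gene length. The deposited tables each set 1 particle against control in 1 tissue and hold group levels only, so the depth of a library is unknown. A fold change is log2 of treated over control, and its standard error (SE) was worked back from the deposited p-value. A call here means a deposited adjusted p below 0.05, with no limit on the size of the change. The authors' deposited tables also mark genes up or down, and all of those also changed by 1 or more on the log2 scale, so a call here is not the authors' mark. The p-values measure the spread between libraries as the authors' DESeq2 method modelled it, and that spread may be technical. Both tables of a tissue share their control libraries. Once the different scaling of the tables was taken out, the control levels of a member in those tables lay within 0.02 of each other on the log2 scale. The exceptions were GUN4 (0.11) and PORA (1.96), both in root.

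In untreated leaf, 9 of the 10 genes were abundant and PORA was near the lower end. The levels in this paragraph are per kilobase of gene length as the leaf PS-SO3H table gives it. CRD1, which encodes a subunit of the cyclase that closes the fifth ring, had the highest at 24134. CHLH, the porphyrin-binding subunit of magnesium chelatase, stood at 9835, and CHLI1, an ATPase subunit of the same enzyme, stood at 6082. CHLM, a methyltransferase gene of the step after the chelatase, stood at 7069. HEMA1, which encodes glutamyl-tRNA reductase of the first committed step, stood at 4219. GUN4, whose protein binds porphyrin and activates the chelatase, stood at 3311. CAO, which encodes the oxygenase that makes chlorophyll b, stood at 1604. Of the genes of light-dependent protochlorophyllide oxidoreductase, PORB stood at 8182, PORC at 2824 and PORA at 4.13. PORA is known as the form of dark-grown and very young seedlings. All but PORA lay between percentiles 93.1 and 99.7 of the genes in that table, and PORA lay at 13.9. The order from the top was CRD1, CHLH, PORB, CHLM, CHLI1, HEMA1, GUN4, PORC, CAO and PORA. The tables give no error for a level, so no pair of neighbours in that order was tested.

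All 10 genes had lower control levels in root than in leaf. The median log2 ratio of root over leaf was -4.22 in the PS-SO3H tables, against 0.53 over the 22373 genes found in all 4 tables. Leaf and root tables were normalized separately, so these ratios are descriptions. GUN4 had a control level of 4290 in leaf and 54.38 in root, a log2 ratio of -6.30. HEMA1 had 9751 in leaf and 1130 in root, a log2 ratio of -3.11. GUN4 had the widest of the 10 ratios. HEMA1 had the narrowest in these tables, but in the PS-NH2 tables PORA was narrower at -2.72, against -3.06 for HEMA1, and with a pseudocount of 1 PORA stood at -2.60. CHLH went from 45180 in leaf to 2253 in root, CRD1 from 36007 to 1282 and PORB from 13165 to 1060. PORC and CAO stood at 4055 and 3144 in leaf and at 113.9 and 181.4 in root. Light-harvesting and Rubisco genes, fixed as a marker list of green tissue, had a median ratio of -6.21 over 17 genes, and all 17 were lower in root. The root marker list had a median of 6.42 over 8 genes, and all 8 were higher in root, although SCR was nearly equal at 0.02.

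**Figure D1:**
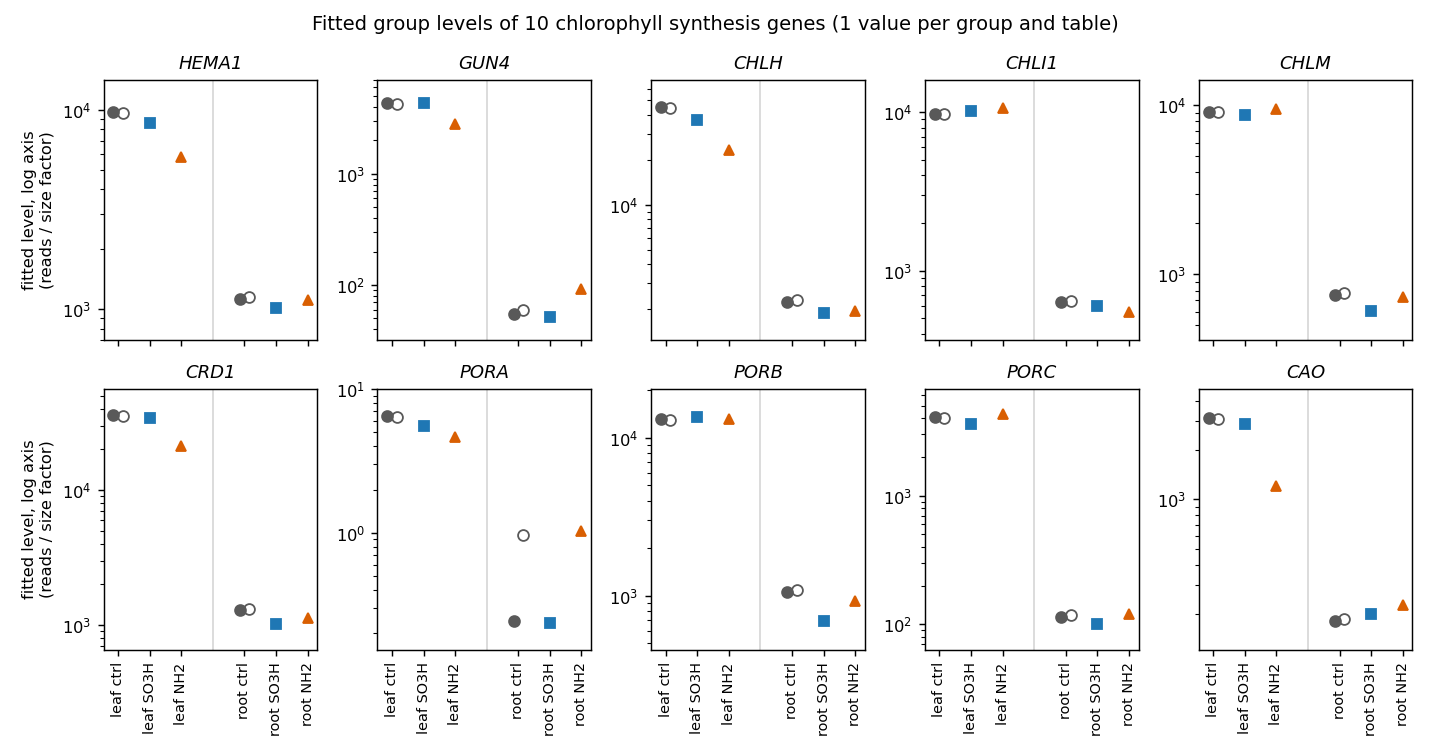
Fitted level of each of the 10 genes on a log axis in leaf and root, with grey circles for control (filled, PS-SO3H table; open, PS-NH2 table), blue squares for PS-SO3H and orange triangles for PS-NH2. There is 1 value per group and table, with no error bar because the tables give none, and each panel has its own range. In leaf the PS-NH2 level of CAO stands at 1212 below control levels of 3100 and 3144.

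For the amino-bearing particle, the question in leaf was which of these transcripts differ from untreated seedlings. HEMA1, GUN4, CHLH, CRD1 and CAO fell, and CHLI1, CHLM, PORA, PORB and PORC were not called. At an adjusted p below 0.05, 5 of 10 were thus lower and 0 higher, where 7.4% of all 23480 genes were called lower and 3.79% higher. Among genes with a mean level of 200 or more, 10.2% were called lower, and 9 of the 10 members are at such levels in leaf. The authors' deposited table itself marks CAO down, the only 1 of the 10, and 0 up, with 845 of all its genes marked down. The median log2 fold change of the 10 was -0.52, against -0.00 over all genes of the table.

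CAO had the lowest fold change of the 10. Its level went from 3100 in control leaf to 1212 with PS-NH2, or 39.1% of control, with a log2 fold change of -1.35 ± 0.17 (SE) and an authors' adjusted p of 5.16e-14. CHLH went from 44730 to 23215, or 51.9% of control, with -0.95 ± 0.11 and an authors' adjusted p of 1.42e-14. GUN4, which activates the chelatase that CHLH belongs to, went from 4236 to 2808, or 66.3% of control. Its log2 fold change was -0.59 ± 0.16, with an authors' adjusted p of 0.00303.

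HEMA1, at the entry of the pathway, went from 9658 to 5792, or 60.0% of control, with a log2 fold change of -0.74 ± 0.10 and an authors' adjusted p of 8.26e-11. CRD1, the cyclase gene, went from 35628 to 21280, or 59.7% of control, with -0.74 ± 0.11 and an authors' adjusted p of 2.27e-09. The called genes thus included genes of the first committed step, the chelatase and its activator, the cyclase and the step to chlorophyll b. Other genes of the chelatase and the cyclase were above 0 and not called. The chelatase genes CHLI1, CHLI2 and CHLD had log2 fold changes of 0.13, 0.28 and 0.15, and LCAA of the cyclase had 0.25.

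Of the other members, CHLI1, CHLM, PORB and PORC were at 101% to 110% of control, and PORA was at 73.1% with a wide interval. CHLI1, a subunit of the same enzyme as CHLH, went from 9688 to 10633 in leaf with PS-NH2, and its 95% interval of the log2 fold change ran from -0.08 to 0.35. CHLM went from 9062 to 9459, with an interval from -0.15 to 0.28. PORB went from 13039 to 13224 (-0.20 to 0.24) and PORC from 4025 to 4282 (-0.16 to 0.34). These intervals leave out falls of the size seen for HEMA1 or CRD1. PORA, at fitted levels of 6.38 and 4.66, had an interval from -1.56 to 0.66, too wide to show a change of that size.

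**Figure D2:**
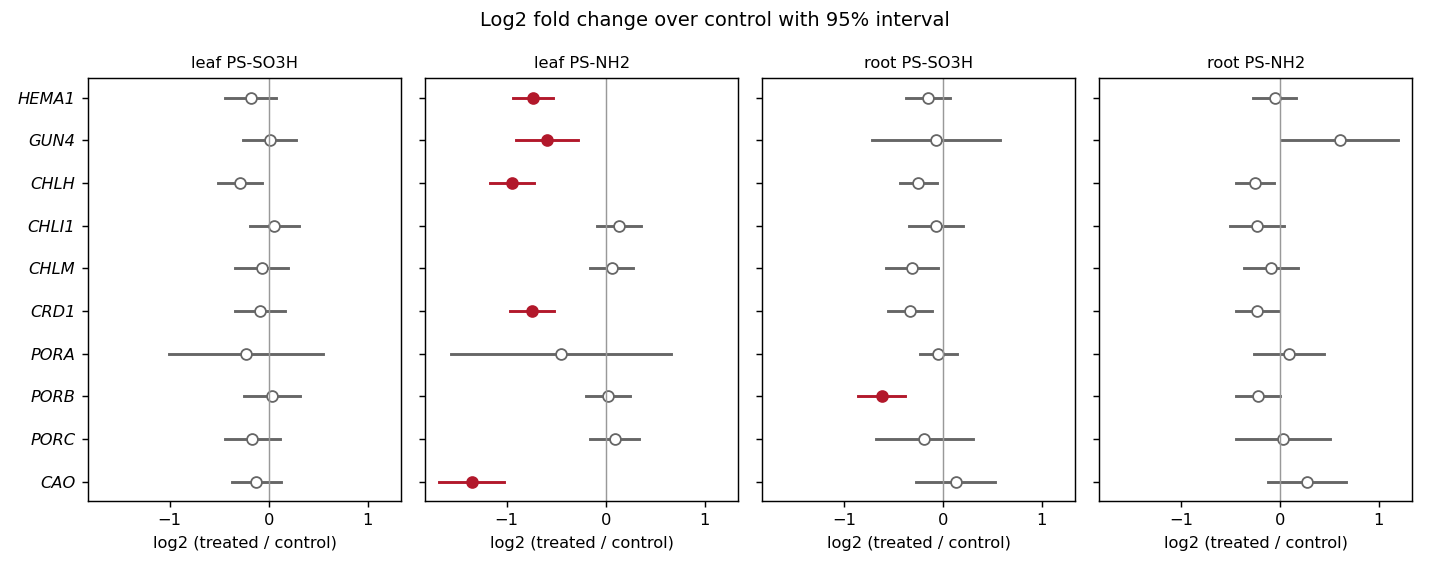
Log2 fold change of treated over control for the 10 genes in the 4 comparisons, with points for the authors' value and lines for the 95% interval from the recovered SE. Filled points were called at the authors' adjusted p below 0.05, red for lower, and open grey points were not called. PORA in root is drawn at fitted levels from 0.24 to 1.03, where its narrow interval cannot be read as the absence of a change. In leaf with PS-NH2, CAO, CHLH, CRD1, HEMA1 and GUN4 lie between -1.35 and -0.59, and in root with PS-SO3H only PORB is filled, at -0.62.

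Promoter sequence is shown for HEMA1, CHLH and CAO, which fell together in leaf with PS-NH2 and whose window holds no other annotated gene. Each window is the 250 bases before the annotated gene start, from RefSeq's TAIR10.1, whose nuclear chromosomes are those of TAIR10. All 3 genes lie on the minus strand, at chr1:21626403-21626652 for HEMA1, chr5:4392430-4392679 for CHLH and chr1:16851272-16851521 for CAO. Capitals mark a G-box, a motif bound by light-signalling factors, and the windows are written 5′ to 3′ along the gene.
HEMA1: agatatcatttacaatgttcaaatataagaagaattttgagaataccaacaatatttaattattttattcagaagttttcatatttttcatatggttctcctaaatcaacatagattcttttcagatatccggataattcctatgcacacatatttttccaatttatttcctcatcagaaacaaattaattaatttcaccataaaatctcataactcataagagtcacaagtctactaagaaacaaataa
CHLH: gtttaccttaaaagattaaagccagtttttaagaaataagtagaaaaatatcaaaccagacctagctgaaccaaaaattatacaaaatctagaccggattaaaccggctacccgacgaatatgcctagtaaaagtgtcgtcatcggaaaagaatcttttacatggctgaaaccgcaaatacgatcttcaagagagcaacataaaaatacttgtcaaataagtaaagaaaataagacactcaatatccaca
CAO: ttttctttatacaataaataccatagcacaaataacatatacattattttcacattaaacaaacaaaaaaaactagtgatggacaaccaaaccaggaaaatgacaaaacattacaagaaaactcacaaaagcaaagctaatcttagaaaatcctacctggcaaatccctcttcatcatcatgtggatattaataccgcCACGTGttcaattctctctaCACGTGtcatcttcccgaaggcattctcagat
The CAO window holds 2 matches to the G-box CACGTG, which start 52 and 32 bases before the gene, and those of HEMA1 and CHLH hold 0. The motifs searched on both strands were the G-box, CCAATC (bound by GLK factors), AAAAATCT (bound by the clock factor CCA1) and the evening element AAAATATCT, none of which contains another. Each was found in 2 of the 10 members. Over 27443 promoters of the same length, the shares were 6.49%, 10.2%, 6.69% and 2.36% in that order. CRD1 and CAO held the G-box, GUN4 and PORB CCAATC, GUN4 and CRD1 AAAAATCT, and PORA and PORB the evening element. The windows of GUN4, CHLI1, CHLM, CRD1, PORB and PORC overlap another annotated gene. A match is a description of letters and not a site.

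Some members share bases with a neighbour on the other strand, and the tables do not state whether reads were assigned by strand. GUN4 overlaps AT3G59410 (GCN2) over 946 bases. In leaf with PS-NH2 GCN2 went from a level of 537 to 443 and was not called (log2 fold change -0.28 ± 0.20, authors' adjusted p = 0.544). In untreated root GCN2 stood at 639 and GUN4 at 54.38, and reads from the shared bases cannot be told apart. CRD1 shares 147 bases with AT3G56950 and 259 with AT3G08795, of which no level was used here, and CHLI1 shares 116 bases with AT4G18465. CAO shares 36 bases with AT1G44414, whose fitted levels in leaf were below 5. PORB shares 71 bases with AT4G27450, which had log2 fold changes of -0.04 ± 0.17 in root with PS-SO3H and -0.97 ± 0.18 in leaf with PS-NH2. CHLM shares 37 bases with AT4G25090, which rose in root with PS-SO3H (0.66 ± 0.11), and PORC 121 bases with AT1G03620, which fell there (-1.11 ± 0.26). How reads shared by the POR genes, or by CHLI1 and CHLI2, were counted is not given in the sources used here.

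For the sulfonated particle the leaf question was the same. At an adjusted p below 0.05 by the authors' DESeq2 method, 0 of the 10 genes were called, where 4.46% of 23529 genes were called in either direction. At an unadjusted p below 0.05 there was 1 of 10 (CHLH), against 12.4% of all genes. CHLH went from a level of 45180 to 36893, with a log2 fold change of -0.29 ± 0.11 and an authors' adjusted p of 0.141. HEMA1 went from 9751 to 8606, with -0.18 ± 0.13 (authors' adjusted p = 0.739). CAO went from 3144 to 2884 (-0.12 ± 0.13) and CRD1 from 36007 to 33955 (-0.08 ± 0.13). GUN4 stood at 4290 and 4321 (0.01 ± 0.14). The other 5 members had log2 fold changes between -0.23 (PORA) and 0.05 (CHLI1), and the median of the 10 was -0.10.

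The particles, at the same dose, were compared in leaf by subtraction, the PS-NH2 log2 fold change minus that of PS-SO3H. CAO, CRD1, CHLH and HEMA1 were lower with PS-NH2, and 0 members were higher. These are 4 of 10 members, where 2.59% of 23150 genes were called lower and 0.583% higher at a Benjamini-Hochberg adjusted p below 0.05 over all genes. CAO differed by -1.23 ± 0.21 (95% interval -1.64 to -0.82), with an adjusted p of 1.84e-06. CRD1 differed by -0.66 ± 0.17 (-0.99 to -0.33), CHLH by -0.65 ± 0.16 (-0.97 to -0.34) and HEMA1 by -0.56 ± 0.17 (-0.89 to -0.23). Their adjusted p-values were 0.00645, 0.00332 and 0.0328.

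GUN4 missed the call, with a difference of -0.60 ± 0.21 (-1.02 to -0.19) and an adjusted p of 0.104. The SE of the particle difference is too large because the control libraries are shared. The covariance from that sharing was not estimated. It was assumed, for every gene, to be a fixed share of the mean squared SE of both fold changes. With this assumed covariance taken out, which calls 8.42% of all genes, the adjusted p of GUN4 was 0.00128. The leaf interval of the difference ran from -0.25 to 0.41 for CHLI1, from -0.21 to 0.48 for CHLM, from -0.37 to 0.35 for PORB and from -0.12 to 0.63 for PORC. For PORA it ran from -1.58 to 1.13.

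The root comparison with PS-SO3H asked which of these transcripts differ in roots of seedlings raised with that particle. PORB fell, and the other 9 were not called. That is 1 of 10 lower at an adjusted p below 0.05, where 1.95% of 23818 genes were called lower and 2.88% higher. PORB went from a level of 1060 to 690, or 65.2% of control, with a log2 fold change of -0.62 ± 0.12 and an authors' adjusted p of 1.88e-05. The authors' deposited tables mark 0 of the 10 in root with either particle, and 0 in leaf with PS-SO3H. Such marks are rare among all genes. In root they cover 116 up and 92 down of 23818 with PS-SO3H, and 73 up and 147 down of 23839 with PS-NH2. In leaf with PS-SO3H they cover 119 up and 221 down of 23529, so 0 of 10 does not set the members apart. CRD1 went from 1282 to 1019 (-0.33 ± 0.11, authors' adjusted p = 0.0617). CHLM went from 756 to 609 (-0.31 ± 0.14) and CHLH from 2253 to 1898 (-0.25 ± 0.09), with authors' adjusted p-values of 0.242 and 0.133. At an unadjusted p below 0.05 there were 4 of 10, all lower, against 4.99% of all genes lower at that limit. PORA had fitted levels below 1 in both groups, and its fold change in root is drawn but not described.

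Green tissue and root markers moved in the same root table. Of the 17 light-harvesting and Rubisco genes 7 were lower and 0 higher with PS-SO3H, all 17 log2 fold changes were below 0, and the median was -0.43. Their summed level went from 19826 to 15519, and the lowest fitted level among the 17 was 73.9 in control and 24.5 with PS-SO3H. Of the 8 root markers 4 were higher and 0 lower, among them the root hair gene COBL9 at 0.72 ± 0.15. Their summed level went from 323926 to 403934. PYK10 alone stood at 317901 in control root, so that sum mostly follows PYK10 and not the list. The part of these shifts in the fall of PORB was not tested. In a bulk sample, fewer cells of a type and less RNA per cell cannot be told apart.

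The root comparison with PS-NH2 gave 0 called members at an adjusted p below 0.05 by the authors' DESeq2 method, where 4.32% of 23839 genes were called in either direction. At an unadjusted p below 0.05 there were 4 of 10, against 10.8% of all genes. CHLH went from 2308 to 1941 (log2 fold change -0.25 ± 0.10, authors' adjusted p = 0.168), CRD1 from 1314 to 1123 (-0.23 ± 0.11, 0.386) and PORB from 1088 to 932 (-0.22 ± 0.11, 0.458). GUN4 was the one of the 4 above 0, at levels of 60.03 and 91.66 (0.61 ± 0.30, authors' adjusted p = 0.409). HEMA1 stood at 1158 and 1117 and CAO at 187 and 226, with intervals of the log2 fold change from -0.27 to 0.17 and from -0.12 to 0.67. Between the particles in root, PS-NH2 minus PS-SO3H, 0 of 10 members were called on the DESeq2 fold changes, against 3.24% of 23506 genes, and 1 had an unadjusted p below 0.05, against 9.51% of all genes. That was PORB, with a difference of 0.39 ± 0.17 (95% interval 0.07 to 0.72, adjusted p = 0.273). With the assumed covariance of the shared control taken out, which calls 9.04% of all genes in root, its adjusted p was 0.012.

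Leaf and root shared no libraries, so the response to a particle could be compared between them, root minus leaf. The test took the tissues as independent, although the labels do not say that they came from separate plants or cultures. For PS-NH2 the difference was called for HEMA1, GUN4, CHLH, CRD1 and CAO, each less negative in root or above 0 there. These are 5 of 10 higher and 0 lower, where 4.59% of 22714 genes were called higher and 1.99% lower. CAO differed by 1.63 ± 0.26 (95% interval 1.12 to 2.14), with an adjusted p of 5.2e-08. GUN4 differed by 1.204 ± 0.34 (0.54 to 1.87), CHLH by 0.70 ± 0.15 (0.40 to 0.99), HEMA1 by 0.69 ± 0.15 (0.39 to 0.98) and CRD1 by 0.52 ± 0.16 (0.21 to 0.82). Their adjusted p-values were 0.0089, 0.000183, 0.000304 and 0.0187. The root side of the GUN4 difference is an uncalled 0.61 at levels of 60.03 and 91.66. GUN4 shares 946 bases with GCN2, so its root value is less certain than those of the other 4. CHLI1 went the other way with -0.37 ± 0.18 and was not called (adjusted p = 0.294).

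For PS-SO3H 1 of 10 members differed between tissues, PORB, which was lower in root, where 0.902% of 22720 genes were called lower and 1.63% higher. Its log2 fold change was -0.62 in root and 0.03 in leaf, a difference of -0.65 ± 0.19 (95% interval -1.02 to -0.28, adjusted p = 0.0271). HEMA1 and CHLH had differences of 0.03 ± 0.17 and 0.04 ± 0.15, with intervals from -0.31 to 0.37 and from -0.24 to 0.33.

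**Figure D3:**
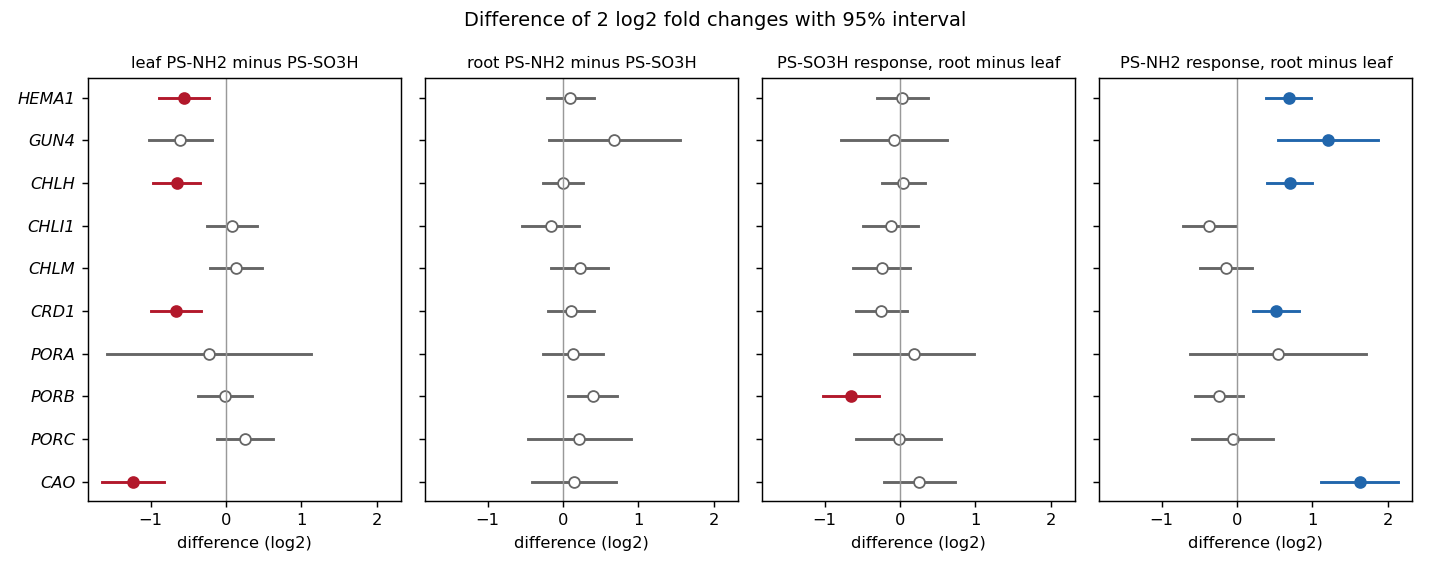
Difference of 2 log2 fold changes for each of the 10 genes, with points for the difference and lines for its 95% interval, in 4 panels (PS-NH2 minus PS-SO3H in leaf and in root, and root minus leaf for each particle). Filled points had an adjusted p below 0.05 over all genes, red for lower and blue for higher. In the root particle panel PORA rests on fitted levels from 0.24 to 1.03. Its narrow interval there cannot be read as the absence of a difference. CAO lies farthest from 0 both in the leaf particle panel (-1.23) and in the PS-NH2 tissue panel (1.63).

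The rest of the pathway was followed through lists of other genes. Of 13 listed genes for other early tetrapyrrole enzymes, 1 was higher and 0 lower in PS-NH2 leaves, and the median log2 fold change was 0.12. The one called was HEMF2, a coproporphyrinogen oxidase gene, at 0.56 ± 0.20. Of 6 other genes of the chlorophyll branch 1 rose and 0 fell, with a median of 0.22. It was DVR, which reduces a vinyl group of the precursor, at 0.35 ± 0.12. At an unadjusted p below 0.05 there were 4 of 13, all higher, and 4 of 6, of which 3 were higher. The one lower was CHLP, the geranylgeranyl reductase gene and the most abundant of its list, which went from 31194 to 25992 (-0.26 ± 0.10, authors' adjusted p = 0.0811). Lists of this size hold few genes at the 7.4% called lower in the table, so 0 lower calls sets neither list apart. With PS-SO3H in leaf the DESeq2 method called 0 of 14 and 0 of 6, with 1 and 0 at an unadjusted p below 0.05.

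Of 6 genes of the heme, siroheme and bilin branches, 2 were lower and 0 higher in PS-NH2 leaves. FC1, a ferrochelatase gene of the heme branch, went from a level of 1985 to 938 (log2 fold change -1.08 ± 0.13, authors' adjusted p = 1.51e-14). UPM1, a methyltransferase gene of the siroheme branch, went from 5475 to 3479 (-0.65 ± 0.12). With PS-SO3H, FC1 was the 1 of 6 that fell in leaf, from 2001 to 1351 (-0.57 ± 0.14, authors' adjusted p = 0.0015). The tables share their control libraries, so the FC1 values are not independent. Genes of chlorophyll breakdown and of the conversion of the b to the a form gave 2 of 10 higher and 0 lower in leaf with PS-NH2. These were NOL and HCAR, both of the b-to-a conversion, at 0.62 ± 0.17 and 0.51 ± 0.14. With PS-SO3H 0 of 10 were called by the DESeq2 method and 3 had an unadjusted p below 0.05.

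Regulators of the pathway gave calls of both signs in leaf. HY5, PIF3, PIF4 and PIF5 fell with PS-NH2, which is 4 of 14, and GNC and GNL rose. PIF5, a factor of the phytochrome-interacting family that restrains greening in the dark, had a log2 fold change of -1.40 ± 0.14, and PIF4 had -1.21 ± 0.21. HY5, a factor that promotes light responses, had -0.72 ± 0.24. The GATA factor genes GNC and GNL, which promote chlorophyll synthesis, had 0.65 ± 0.17 and 0.74 ± 0.24. With PS-SO3H PIF4 and PIF5 fell, at -0.81 ± 0.19 and -0.46 ± 0.14, and the GLK factor genes GLK1 and GLK2, which drive chloroplast genes, rose, at 0.53 ± 0.16 and 0.66 ± 0.14.

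Markers of green tissue and of the clock moved in the leaf PS-NH2 table beside the 5 lower members. Of the 17 light-harvesting and Rubisco genes 10 were lower and 0 higher, with a median of -0.45, and their summed level went from 1835370 to 1743280. The 13 light-harvesting genes were all below 0, and the 4 Rubisco genes were all above 0 and not called, from 0.13 ± 0.13 (RBCS3B) to 0.34 ± 0.14 (RBCS2B). LHCB2.2, a light-harvesting gene, went from 16631 to 4776, the lowest level of the list with PS-NH2. The LHCB1, LHCB2 and Rubisco genes belong to families of near-identical copies whose shared reads may have been split. Root markers in leaf gave 0 of 8 called by the DESeq2 method and 0 at an unadjusted p below 0.05, with summed levels of 14791 and 13776. Only 4 of these 8 had a mean level of 10 or more in leaf, and PYK10 alone stood at 13456 in control. Of 11 clock genes 5 were lower and 1 higher, and the morning genes CCA1 and LHY had -1.41 ± 0.18 and -0.92 ± 0.18. GI and PRR7 had -1.18 and -0.98 with PS-NH2, and PRR5 had 0.60. In the leaf PS-SO3H table the green list gave 0 of 17 called by the DESeq2 method, 1 at an unadjusted p below 0.05, and a median of -0.06, and the clock list gave 2 lower (GI and PRR7) and 0 higher of 11. CCA1 and LHY differed between the particles by -1.41 ± 0.23 and -1.25 ± 0.22. For GI and PRR7 the difference was -0.06 ± 0.36 and -0.27 ± 0.34, and neither was called. The clock genes were chosen as markers of harvest time, and no harvest time per group was used here. The part of harvest time, or of the clock and green tissue shifts, in the fall of the 5 members was not tested.

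**Figure D4:**
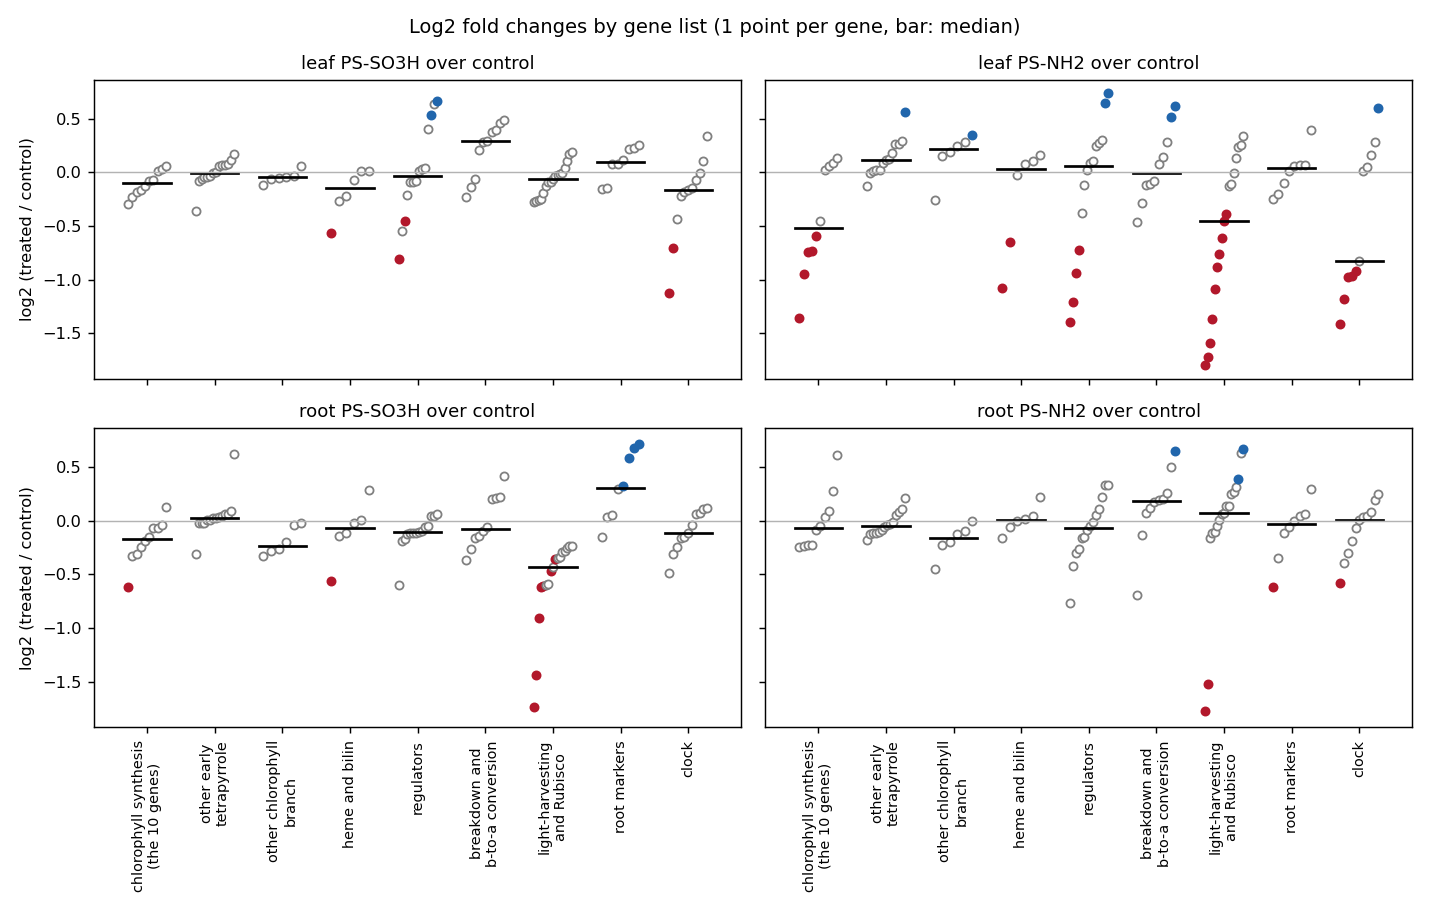
Log2 fold changes of treated over control by gene list in the 4 comparisons, with 1 point per gene and a black bar at the median of a list. Filled points were called at the authors' adjusted p below 0.05, red for lower and blue for higher. In the leaf PS-NH2 panel the medians of the 10 chlorophyll synthesis genes, the light-harvesting and Rubisco genes and the clock genes are -0.52, -0.45 and -0.83, and that of the other early tetrapyrrole genes is 0.12. The clock median is the value of PRR9, at fitted levels of only 3.15 and 1.78, and 6 of the 11 clock genes lie below 0.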

How the data were processed

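Leaf and root RNA of wild-type seedlings was sequenced after random-primed reverse transcription, per the labels' protocols, in 12 libraries of 6 groups. The submitters' processing notes give TAIR10 as the build. SOAP2 stands in the series text, which describes a small RNA library and so may not apply. Counting program, strand setting and depth: not given in the sources used here. The authors deposited, per the file headers, a fitted level per group (a signal on the scale of reads over size factors), a log2 fold change with its p-value, and an adjusted p, by a DESeq2 method. No value per library was used, so no test across libraries was run.

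The SE was computed as the size of the log2 fold change divided by the normal quantile that the deposited p-value stands for, and 95% intervals rest on it. Its median at levels of 200 or more was between 0.130 and 0.169. The deposited log2 fold change equals the log2 ratio of the fitted levels to within 4.87e-08. Differences of 2 log2 fold changes were tested over all genes in both tables, from the root of the summed squared SEs, with a two-sided p from the normal distribution, adjusted by Benjamini-Hochberg. The method was tested on simulated data. There the fold changes were drawn independently of each other, so the shared control was not part of that test. Their p-values came from the same normal model, so the recovery of the SE could not fail there. Python 3.11.15 with scipy 1.17.1 was used.

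The members and the 8 other lists were chosen with earlier results of these data known. All members are described. Of another list, called genes are named where 5 or fewer were called in a comparison, and otherwise from the 4 with the smallest adjusted p. HY5 and GNL in leaf with PS-NH2 fall outside that rule and were chosen after their values were seen. The same holds for SCR, the genes that overlap a member and, in leaf with PS-NH2, CHLI2, CHLD, LCAA, CHLP, RBCS2B and RBCS3B. PYK10, and GI, PRR5, PRR7 and PRR9 in leaf with PS-NH2, were also named after their values were seen. All loci of the lists were found in the TAIR10.1 reference. Alternatives changed the call limit, the centring of fold changes, the filter on low levels, the covariance of the shared control and the scaling of the control levels.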

Additional observations from a re-analysis of the deposited data

Results flagged for a closer look

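Responses that differed between particles or tissues by the test of the difference itself are listed here as values. In leaf, PS-NH2 minus PS-SO3H, the log2 difference was -0.56 for HEMA1, -0.65 for CHLH, -0.66 for CRD1 and -1.23 for CAO. For the PS-NH2 response, root minus leaf, it was 0.69 for HEMA1, 1.204 for GUN4, 0.70 for CHLH, 0.52 for CRD1 and 1.63 for CAO. For the PS-SO3H response, root minus leaf, it was -0.65 for PORB. The leaf PS-NH2 fold changes enter both the first and the second set, so these sets are not independent. The GUN4 value rests on root levels of 60.03 and 91.66, in a gene that overlaps GCN2.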

How the results depend on the processing

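Under re-centring on the median gene, re-centring on genes at levels of 200 or more, and a filter at a mean level of 10 (which leaves PORA without a value), the count of called members was the same in all 4 comparisons with control and all 4 differences. With the call limit set at an adjusted p of 0.001 and a log2 change of 1 in size, the calls in leaf with PS-NH2 went from 5 to 1 (CAO), in root with PS-SO3H from 1 to 0, in the leaf particle difference from 4 to 1, in the PS-SO3H tissue difference from 1 to 0 and in the PS-NH2 tissue difference from 5 to 1. The alternative asks for a larger change by construction. The share of all genes called at that stricter limit was not computed, so these counts say nothing of the members against other genes. With the assumed covariance of the shared control taken out, the root particle difference went from 0 to 1 (PORB) and the leaf one from 4 to 5 (GUN4). That alternative called 9.04% of all genes in root and 8.42% in leaf, so 1 of 10 in root is near the share of all genes. The median root over leaf ratio of -4.22 was -4.47 with upper-quartile scaling, -4.60 with median scaling, -4.03 with a pseudocount of 1 and -3.98 from the PS-NH2 tables. No direction turned in any of these alternatives. No paired analysis was possible because the tables carry no value per library, and for that reason leaving out each replicate was not run. Depth is unknown, and fitted levels of PORA, below 7 in leaf and near or below 1 in root, limit what can be said of it.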

Other observations

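UPM1 of the siroheme branch was the 1 of 6 heme, siroheme and bilin genes that fell in root with PS-SO3H, from a level of 6935 to 4683 (log2 fold change -0.57 ± 0.09, authors' adjusted p = 9.01e-08 by their DESeq2 method). It stood at 0.04 in root with PS-NH2, and the difference between the particles was 0.61 ± 0.12. SGR1, which encodes a magnesium dechelatase of chlorophyll breakdown, was the 1 of 10 breakdown and conversion genes that rose in root with PS-NH2, from 281 to 440 (0.65 ± 0.17). Its leaf log2 fold change with PS-NH2 was -0.46, and the response differed between root and leaf by 1.11 ± 0.28. The other early enzymes and the other chlorophyll branch genes gave 0 calls by the DESeq2 method in both root tables (0 of 14 and 0 of 6 with PS-NH2 at an unadjusted p below 0.05, and 0 of 14 and 2 of 6 with PS-SO3H). All 6 of those chlorophyll branch genes had log2 fold changes below 0 in both root tables, which share control libraries.

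Light-harvesting and Rubisco genes gave 2 of 17 higher in root with PS-NH2, LHCB1.3 at 0.67 ± 0.08 and RBCS1A at 0.39 ± 0.11, and 2 lower, LHCB1.1 and RBCS2B, and all 4 belong to families of near-identical copies whose shared reads may have been split. Regulators gave 0 of 14 called in both root tables by the DESeq2 method, with 0 (PS-SO3H) and 2 (PS-NH2) at an unadjusted p below 0.05. Clock genes gave 0 of 11 in root with PS-SO3H (1 at an unadjusted p below 0.05) and 1 lower with PS-NH2, GI at -0.58 ± 0.14. Root markers gave 1 of 8 lower in root with PS-NH2, EXPA18 at -0.62 ± 0.18, and 0 of 8 in leaf with PS-SO3H (1 at an unadjusted p below 0.05). In leaf with PS-SO3H only 4 of these 8 had a mean level of 10 or more. Genes with fold changes most like those of a member over the 4 comparisons were sought among 15360 genes with mean levels of at least 50, by Euclidean distance. Nearest to CHLH were AT1G50740 (distance 0.08), HCF107 (0.10) and ATH13 (0.10). Nearest to CAO were ABCC3 (0.18), AO (0.21) and NAC102 (0.26), and nearest to HEMA1 were AT3G01060 (0.10), PUB43 (0.11) and SPA1 (0.11). Any member has nearest genes in a search of this size. The SE of 1 fold change of CHLH was 0.09 to 0.11, as large as its distances, so the order of neighbours is not resolved. Both tables of a tissue share control libraries, and whether these genes are regulated together was not tested.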
